A study of Homo sapiens with 28 samples.

Results

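The SLAM receptor family at 1q23 was followed through its regions of open chromatin in multiple myeloma cell lines. The 8 genes were SLAMF1, SLAMF6, SLAMF7, SLAMF8, LY9 (also called SLAMF3), CD48, CD84 and CD244, and a region was taken as a member when the deposited annotation named one of these genes as the nearest transcription start. This gave 43 of 154985 regions, of which 12 were promoter regions, within 1 kb of a listed start, and 31 were distal. The assay was ATAC-seq, which uses a transposase to cut and tag exposed DNA, run on 22 untreated lines and on 6 of them (KMS27, Karpas620, L363, MM1S, OPM2 and RPMI8226) after 10 µM lenalidomide, analysed on day 3. The labels name no vehicle for the untreated lines, and all lines are established cultures of malignant plasma cells. Each line was assayed once per condition, so there was no replicate within a line and lines were the unit of every comparison.

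SLAM receptors are immunoglobulin-like proteins on the surface of blood cells. Most bind a copy of themselves on a neighbouring cell, whereas CD244 binds CD48, which is held in the membrane by a lipid anchor and has no signalling tail. The tails of most other members, though not of all, carry tyrosine motifs that recruit the small adapters SAP (SH2D1A) and EAT-2 (SH2D1B) or phosphatases such as SHP-1 (PTPN6). SLAMF7, also known as CS1, is abundant on normal and malignant plasma cells and is the target of the antibody elotuzumab. Lenalidomide redirects the ligase substrate receptor cereblon to the lymphoid transcription factors IKZF1 and IKZF3, which are then degraded. Accessibility is not expression, and no RNA was analysed here.

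The windows that carry the results below are shown as reference sequence of GRCh37, 300 bases each, 5′ to 3′ in the direction in which the gene is transcribed. Capitals mark every match, on either strand, to 6 short patterns: the interferon response core and the ETS-IRF composite, given by name only, and TGGGAA (Ikaros core), TGTGGT (RUNX core), ATGCAAAT (octamer) and TTCNNNGAA (STAT). The 2 windows named upstream end just before the outermost start of LY9 or of CD48, and the other 4 are the centres of distal regions. None of the 6 overlapped an annotated exon.
LY9 upstream, chr1:160765564-160765863, plus strand: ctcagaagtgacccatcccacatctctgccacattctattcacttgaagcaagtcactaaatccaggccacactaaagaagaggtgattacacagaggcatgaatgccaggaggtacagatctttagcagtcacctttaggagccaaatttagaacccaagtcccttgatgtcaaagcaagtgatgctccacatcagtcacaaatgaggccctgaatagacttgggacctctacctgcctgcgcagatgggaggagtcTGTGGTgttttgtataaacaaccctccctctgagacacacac
LY9 -13.4 kb, chr1:160752010-160752309, plus strand: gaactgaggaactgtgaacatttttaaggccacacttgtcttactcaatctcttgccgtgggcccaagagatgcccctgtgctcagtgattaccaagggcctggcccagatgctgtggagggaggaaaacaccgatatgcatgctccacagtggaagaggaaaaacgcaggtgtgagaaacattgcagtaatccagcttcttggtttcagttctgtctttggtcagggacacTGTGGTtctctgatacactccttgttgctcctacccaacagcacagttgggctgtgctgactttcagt
CD48 upstream, chr1:160681642-160681941, minus strand: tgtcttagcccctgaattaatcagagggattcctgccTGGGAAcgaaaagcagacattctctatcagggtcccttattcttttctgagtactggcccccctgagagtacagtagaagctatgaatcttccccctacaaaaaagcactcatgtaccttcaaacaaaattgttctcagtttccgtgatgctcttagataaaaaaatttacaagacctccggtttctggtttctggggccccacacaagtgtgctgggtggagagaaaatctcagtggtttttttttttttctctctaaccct
CD48 -2.3 kb, chr1:160684093-160684392, minus strand: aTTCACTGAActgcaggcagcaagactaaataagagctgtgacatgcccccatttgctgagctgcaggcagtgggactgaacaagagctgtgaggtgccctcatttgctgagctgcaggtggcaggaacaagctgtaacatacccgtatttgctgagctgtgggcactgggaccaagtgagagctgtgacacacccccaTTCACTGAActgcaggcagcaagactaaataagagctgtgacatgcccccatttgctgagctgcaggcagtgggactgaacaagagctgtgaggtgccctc
SLAMF7 -12.0 kb, chr1:160696378-160696677, plus strand: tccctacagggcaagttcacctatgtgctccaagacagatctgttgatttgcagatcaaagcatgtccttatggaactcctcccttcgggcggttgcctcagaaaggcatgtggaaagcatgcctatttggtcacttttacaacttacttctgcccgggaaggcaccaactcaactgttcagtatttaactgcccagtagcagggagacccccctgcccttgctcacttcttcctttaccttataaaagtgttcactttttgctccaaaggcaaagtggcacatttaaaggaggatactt
SLAMF7 +17.2 kb, chr1:160737850-160738149, plus strand: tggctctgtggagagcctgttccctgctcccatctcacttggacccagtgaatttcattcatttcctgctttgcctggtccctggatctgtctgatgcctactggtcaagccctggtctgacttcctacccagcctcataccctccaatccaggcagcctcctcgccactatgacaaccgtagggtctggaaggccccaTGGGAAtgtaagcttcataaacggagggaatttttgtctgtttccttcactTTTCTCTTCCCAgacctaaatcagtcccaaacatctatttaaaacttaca

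Both LY9 windows held 1 RUNX core, at bases 259 to 264 of the window that ends at the start and at bases 233 to 238 of the distal window, counted from its first printed base. The CD48 upstream window held 1 Ikaros core, and the window 17.2 kb from SLAMF7 held 2 Ikaros cores, the second overlapping an ETS-IRF composite on the other strand. The window 2.3 kb upstream of CD48 held 2 STAT matches, at bases 2 to 10 and 200 to 208, with the same letters in both. These letters recur because the region repeats itself: shifted by 198 bases, 73.8% of its bases were identical. Only 25.4% of its 31-base words occurred once in the genome, but every one of them occurred nowhere outside the region. Over the centres of all 43 member regions, the Ikaros core was present in 34.9%, against 21.3% of all 154985 regions, and the STAT pattern in 18.6% against 8.73%. The RUNX core was present in 34.9% against 30.2%, the interferon response core in 2.33% against 9.60%, the ETS-IRF composite in 4.65% against 5.11% and the octamer in 6.98% against 3.71%. In the 300 bases upstream of 27718 listed starts, the RUNX core was present in 14.8% and the Ikaros core in 22.2%. A match is a description of letters and shows no binding. The family's promoter regions had a median GC content of 48.5%, against 60% over all promoter regions.

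Untreated libraries held between 1599857 and 5564534 counts in regions (lowest in PE1, highest in H1112), with a median of 2239819. The 6 lenalidomide libraries held from 2168680 to 4248017 counts. The 43 regions took between 129 CPM (a region's counts scaled to the library's total in regions) in OCIMY5 and 396 CPM in KMS20, with a median of 254. The lines matched their label by the promoters of plasma cell markers, all 7 of which (SDC1, PRDM1, IRF4 and others) had a peak called in at least 11 of 22 lines. Among markers of other blood cells with a promoter region in the table, this held for 1 of 4 B cell genes (CIITA), 1 of 3 T and NK cell genes (GNLY) and 0 of 3 myeloid genes, and CD3D, LYZ and MPO had no promoter region. The copy number of 1q, which is often gained in myeloma, was not removed from CPM. Over 65 regions of chromosome 1 around the family that were called in all 28 libraries, the summed level ran from 0.549 of the median in OCIMY5 and 0.571 in PCM6 to 1.52 in OPM2. A lower level in a bulk library may come from fewer open cells or from less opening per cell, which cannot be told apart.

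Peaks were called in many lines at a few regions of the family, a share close to that of all regions. Of the 43 regions, 6 had a called peak in at least 11 of the 22 untreated lines, or 14.0% against 14.8% of all regions, and none had one in all 22. For the 12 promoter regions the share was 8.33%, against 41.1% of all promoter regions, and for the 31 distal regions it was 16.1%, against 8.68% of all distal regions. The 6 regions were the LY9 start (18 lines), 13.4 kb upstream of LY9 (20 lines), 12.0 kb upstream of SLAMF7 (19 lines), 17.2 kb from a SLAMF7 start (19 lines), 27.4 kb upstream of CD84 (14 lines) and 8.2 kb from an internal CD244 start (12 lines). At the other end, 16 regions were called in a single line and 2 in no untreated line, together 41.9% against 45.2% of all regions. A peak call also moved with more than the level. The CD48 start was called in PE1 at 19.4 CPM (31 counts) and not in KMS20 at 21.7 CPM (101 counts).

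**Figure D1:**
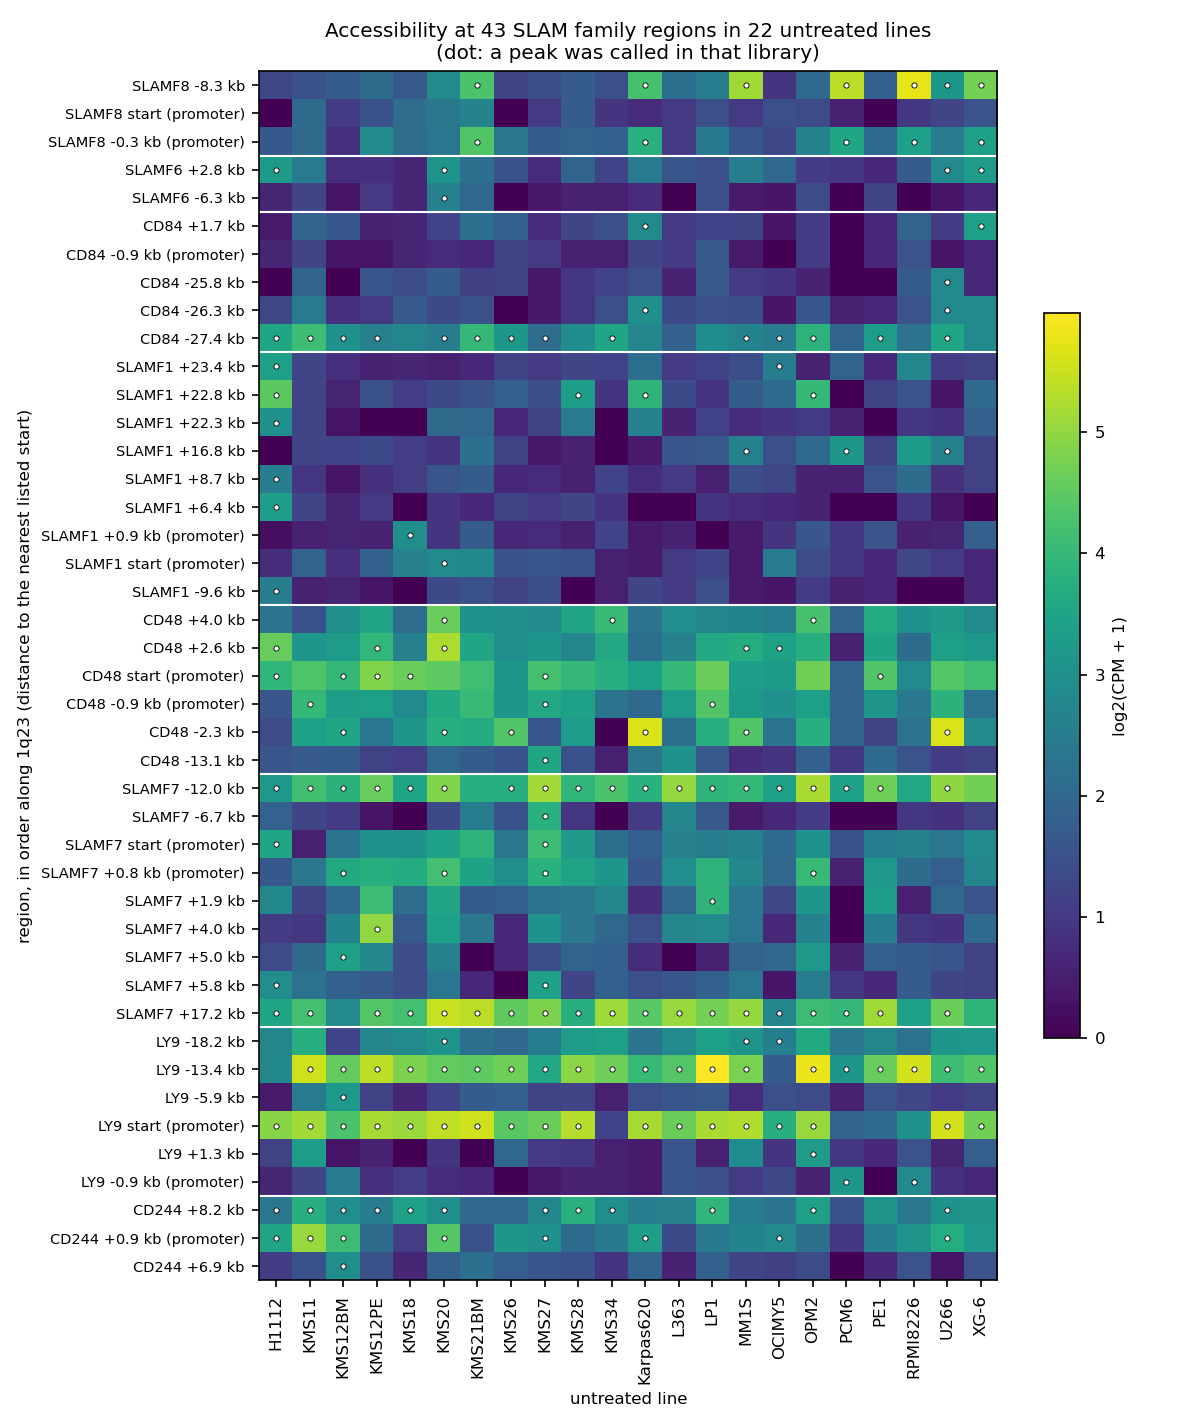
Accessibility of the 43 SLAM family regions (rows, in order along 1q23) in the 22 untreated lines (columns), as log2(CPM + 1). A dot marks a library with its own called peak. The rows called in most lines are LY9 start, LY9 -13.4 kb, SLAMF7 -12.0 kb and SLAMF7 +17.2 kb, with 18 to 20 dots each, whereas most SLAMF1, SLAMF6 and CD84 rows have few.

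SLAMF7, the antibody target, had 9 regions, and 2 of its 7 distal regions had a higher mean CPM than either of its promoter regions. These 2 were also wider, at 1075 and 1164 bases against 392 and 474. Per kb they had 17.4 and 18.6 CPM, close to the 15.8 and 16.7 of the promoter regions. The SLAMF7 start region (chr1:160708824-160709215, 5′ UTR) had 6.18 CPM ± 3.81 (SD, n = 22 lines), from 0.459 in KMS11 to 16.5 in KMS27, and was called in 2 lines. A region listed at 0.8 kb (chr1:160709894-160710367, intron) had 7.90 CPM ± 4.83 and was called in 4 lines. Its 0.8 kb is from an internal start, and it lies 1047 bases from the gene's outermost start. KMS27 was the one line with a call at both, and KMS20, OPM2 and KMS12BM were called at the second only. The distal region 12.0 kb upstream (chr1:160695990-160697064, outside annotated genes) had 18.7 CPM ± 8.86, from 8.09 in H1112 to 36.5 in OPM2. The region listed as 17.2 kb downstream (chr1:160737418-160738581) had 21.7 CPM ± 10.7, from 5.60 in OCIMY5 to 43.6 in KMS20. This last distance is from an internal start, and the region lies past the end of SLAMF7, 28.6 kb from the gene's outermost start and before LY9, so its assignment to SLAMF7 rests on distance alone. The library with the fewest counts held 19 at each of these distal regions. The 5 further SLAMF7 distal regions had a lower mean CPM, not scaled to width, than both promoter regions. Each was called in 1 or 2 lines.

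LY9, a self-binding receptor of B and T lineage cells, had the highest single regions of the family. Its start region (chr1:160765578-160766293, 5′ UTR) had 26.6 CPM ± 14.0, with a median of 30.8 and the highest level, 46.2 CPM, in U266. It was low in 4 lines: KMS34 had 1.30 CPM from 3 counts (95% Wilson interval 0.442 to 3.82, counting error only), PCM6 2.79, PE1 3.13 and RPMI8226 7.08, and these 4 were also the lines without a call. The distal region 13.4 kb upstream (chr1:160751826-160752493, outside annotated genes) had 25.9 CPM ± 15.5, from 2.36 in OCIMY5 to 62.1 in LP1. Most of the lines low at the start were not low at the distal region. There, KMS34 had 24.2 CPM, PE1 23.1 and RPMI8226 46.3, all called. OCIMY5 and H1112, the lines without a call at the distal region, had 12.4 and 29.3 CPM at the start, where the median was 30.8. Across the 22 lines the levels at the 2 regions had a Pearson r of 0.21 on log2(CPM + 1), and of -0.19 after division by the neighbouring regions. PCM6, at 7.90 CPM, was low at both.

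CD48, the ligand of CD244, reached 2 CPM at its start in all 22 lines. The start region (chr1:160681392-160681982, 5′ UTR) had 15.7 CPM ± 6.55, from 2.79 in PCM6 to 28 in KMS12PE, and was called in 6 lines. A second promoter region 0.9 kb upstream had 8.60 CPM ± 4.51 and was called in 3 lines. The internally repeated region 2.3 kb upstream (chr1:160683970-160684514, outside annotated genes) varied far more, with a mean of 11.5 CPM and an SD of 13.3. Karpas620 and U266 both had 48.9 CPM there, the next lines KMS26 and MM1S both had 19.6, and KMS34 had 0 counts, which allows up to 3 counts or 1.30 CPM (1.66 CPM as the upper 95% Wilson limit). KMS34 was thus the lowest line both at this region and at the LY9 start, while its CD48 start had 12.5 CPM. Inside the gene, the region 2.6 kb from the start had 10.2 CPM ± 7.57 and the region 4.0 kb from it 7.99 CPM ± 5.15, both highest in KMS20.

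CD244, the receptor for CD48 on NK and other cytotoxic cells, had 3 regions, none at its outermost start. Its promoter region (chr1:160807296-160808055, intron) lies 0.9 kb from an internal start and 24.6 kb from the outermost one. It had 7.79 CPM ± 7.26, from 0.930 in PCM6 to 32.2 in KMS11, and was called in 8 lines. The distal region listed at 8.2 kb (chr1:160800278-160800762, exon) is 8.2 kb from the same internal start and 31.9 kb from the outermost one. It had 6.67 CPM ± 3.33 and was called in 12 lines.

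SLAMF8, known mainly from myeloid cells, had a low level and no call at its start in untreated lines, and was called upstream in some. The start region had 1.62 CPM ± 1.38 and was called in 0 of 22 lines. It reached 2 CPM in 5 lines, up to 5.36 CPM in KMS21BM. The region 8.3 kb upstream (chr1:159787239-159788199, outside annotated genes) was called in 7 lines, which had 7.93 CPM in U266, 18 in Karpas620, 18.4 in KMS21BM, 25.6 in XG-6, 34.0 in MM1S, 40.0 in PCM6 and 52.9 in RPMI8226. The other 15 lines lay between 0.884 CPM in OCIMY5 and 6.23 in KMS20, so the called lines were also the 7 highest. PCM6, often the lowest line elsewhere in the family, was the second highest here. A region at an internal start 2.3 kb inside the gene (chr1:159798925-159799454, intron), listed at 0.3 kb, had 5.25 CPM ± 4.57. It was called in 5 lines, all of them among the 7, and the levels of the 2 regions had an r of 0.66 over the 22 lines. Of the 31-base words of the upstream region, 72.0% occurred once in the genome.

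SLAMF1, SLAMF6 and CD84, receptors known from B and T cells, had low promoter levels or no promoter region. The SLAMF1 start region (chr1:160616675-160617088, 5′ UTR) had 1.98 CPM ± 1.78 and was called in KMS20 only. The tallest of its 7 distal regions, 22.8 kb inside the gene, had 3.96 CPM ± 5.64 and reached 21.2 CPM in H1112. H1112, the deepest library, had the highest sum over the 9 SLAMF1 regions, 57.1 CPM against a median of 13.2. SLAMF6 had no promoter region in the table, and its taller distal region, 2.8 kb inside the gene, had 3.13 CPM ± 2.62 and was called in 4 lines. The CD84 promoter region had 0.761 CPM ± 0.573, was called in 0 untreated lines and held at most 5 counts in them. After lenalidomide it was called in RPMI8226, at 23 counts or 5.41 CPM, and it had too few counts over the pairs to be tested. The region listed 27.4 kb upstream of CD84 (chr1:160576703-160577320) had 7.42 CPM ± 3.88 and was called in 14 lines, and it lies next to the 3′ end of SLAMF1.

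**Figure D2:**
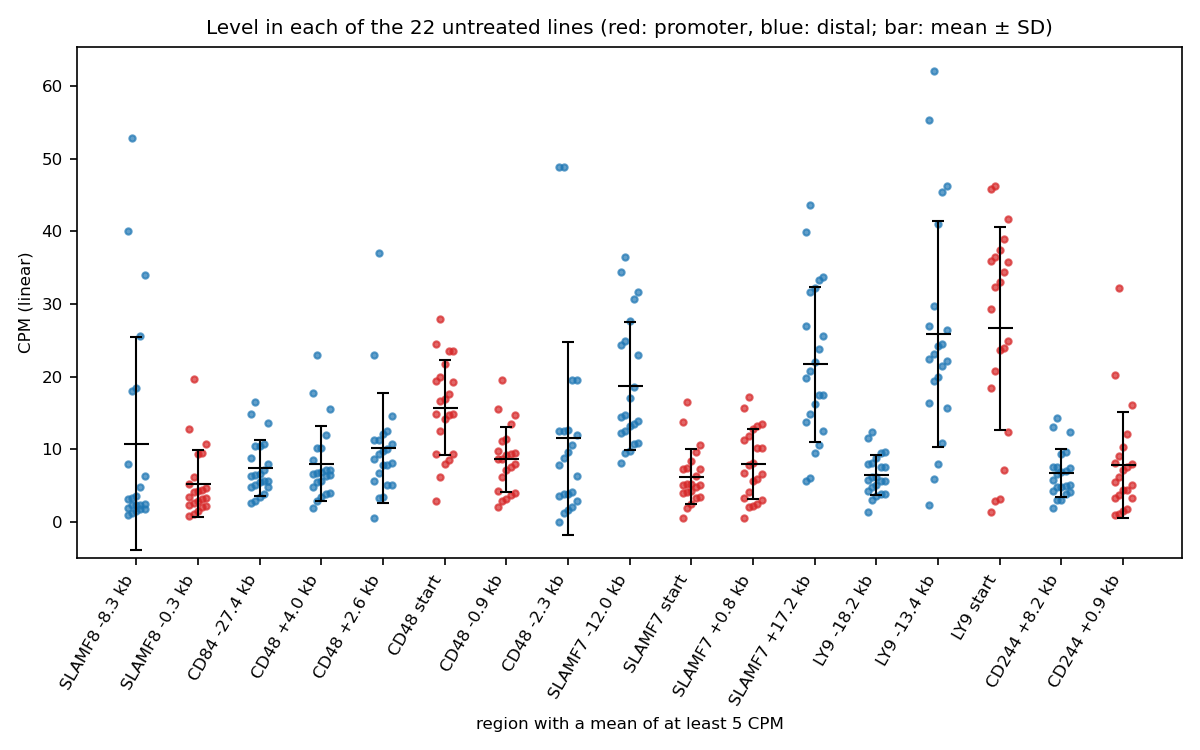
CPM in each of the 22 untreated lines (points) for the 17 regions with a mean of at least 5 CPM, with the mean and SD. Promoter regions are red and distal regions blue. The LY9 start, with a mean of 26.6, and LY9 -13.4 kb, with 25.9, are highest, and SLAMF8 -8.3 kb and CD48 -2.3 kb each have a few lines far above the rest.

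Levels between genes were compared per kb of promoter region covered. LY9 had 26.7 CPM per kb, CD48 26.4, SLAMF7 16.3, CD244 10.2, SLAMF8 7.22, SLAMF1 5.46 and CD84 2.82. Of the 6 neighbours in this order, only CD48 and SLAMF7 differed by more than the spread over lines: CD48 was higher by 0.75 ± 0.63 (SD) on the log2 scale, in 21 of 22 lines. LY9 was above CD48 in 12 of 22 lines. Any promoter region was called in 20 lines for LY9, 8 for CD48, 8 for CD244, 5 for SLAMF7, 5 for SLAMF8, 2 for SLAMF1 and 0 for CD84. For LY9, 18 of these lines were called at the start. PCM6 and RPMI8226 were called only at a region 17.2 kb inside the gene, near an internal start. The order of the genes depended on the peak call: at 2 CPM in place of a call, the numbers were 21 for LY9, 22 for CD48, 21 for SLAMF7, 19 for SLAMF8, 18 for CD244, 9 for SLAMF1 and 1 for CD84.

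Correlations across the 22 lines were computed for 21 pairs of genes and are given as a description, since all points share library depth and 1q copy number. The promoter sums had a median Pearson r of 0.17, from -0.20 to 0.68, and after division by the neighbouring regions the median was -0.039. The highest pair was CD48 with SLAMF7, at 0.68 (Spearman rho 0.60), and 0.51 relative to the neighbours. Among the 17 regions with a mean of at least 5 CPM, the median over 136 pairs was 0.22, and 0.072 relative to the neighbours. The CD48 start and the SLAMF7 region at 0.8 kb had an r of 0.73, and 0.60 relative to the neighbours. The CD48 region 2.3 kb upstream and the LY9 start had an r of 0.70, and 0.66 relative to the neighbours. The CD48 start and the region 8.2 kb from an internal start of its receptor gene CD244 had an r of 0.69, and 0.49 relative to the neighbours. The 2 tallest SLAMF7 distal regions had an r of 0.49, and 0.39 relative to the neighbours. The neighbouring level itself had an r of 0.73 with the CD48 start and 0.66 with the LY9 start, and its part in these correlations was not tested further. Among 12054 genes outside chromosome 1, the promoters most like that of SLAMF7 at 0.8 kb by Pearson r over 22 lines were ANO5 (0.77), LNX1 (0.75), GRM7-AS3 (0.75), GPR125 (0.72) and RP11-382J12.1 (0.72).

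Lenalidomide left most of the family without a called change, and moved 3 regions of LY9 and CD48. In 6 pairs, 17 of the 43 regions had enough counts to be tested, and 3 passed an adjusted p of 0.05, or 17.6% of those tested, against 5.4% of all 37732 regions tested. By direction, 1 rose and 2 fell, where 4.17% of all regions rose and 1.22% fell. These adjusted p-values are from edgeR's quasi-likelihood test with the cell line as a block and Benjamini-Hochberg adjustment over all regions tested. The median log2 fold change was 0.020 over the 17 regions and -0.011 over all regions. All 6 pairs moved one way at 2 of the 17 regions, against 9.42% of all regions. Without the line as a block, edgeR called 0 regions of the whole table (440 at an unadjusted p below 0.05).

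The LY9 start fell. Untreated and then treated, it had 37.4 and 27.9 CPM in MM1S, 35.7 and 21.5 in Karpas620, 32.3 and 17.6 in OPM2, 24.0 and 13.8 in L363, 23.6 and 10.3 in KMS27, and 7.08 and 4.47 in RPMI8226. Every line was lower after treatment, although the 2 conditions overlapped because lines differed at the start. The mean went from 26.7 CPM ± 11.2 to 15.9 ± 8.32 (SD, n = 6), and the fitted log2 fold change was -0.76 ± 0.16 (SE, adjusted p = 0.00257).

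The distal region 13.4 kb upstream of LY9 rose in the same cultures. It had 55.3 and then 70.1 CPM in OPM2, 46.3 and 47.1 in RPMI8226, 26.4 and 42.1 in MM1S, 19.9 and 39.7 in L363, 15.6 and 18 in Karpas620, and 10.8 and 22.9 in KMS27. Every line was higher after treatment, by little in RPMI8226 and Karpas620. The mean went from 29.1 CPM ± 17.8 to 40.0 ± 18.6, and the log2 fold change was 0.51 ± 0.14 (adjusted p = 0.0190). Without KMS27, L363 or MM1S the adjusted p was 0.103, 0.0955 or 0.0932, and the region no longer passed, and with DESeq2 its adjusted p was 0.0819. Of its 31-base words, 93.6% occurred once in the genome, and at the LY9 start 89.4% did.

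The repeated region 2.3 kb upstream of CD48 fell. It had 48.9 and then 15.7 CPM in Karpas620, 19.6 and 13.4 in MM1S, 12.5 and 7.23 in OPM2, 3.78 and 2.12 in RPMI8226, 3.57 and 1.84 in L363, and 2.02 and 2.05 in KMS27. It was lower in 5 of 6 lines, and in KMS27, L363 and RPMI8226 no library held more than 9 counts. The mean went from 15.1 CPM ± 17.9 to 7.05 ± 6.18, and the log2 fold change was -0.94 ± 0.24 (adjusted p = 0.0139). Without Karpas620 or without MM1S the region had too few counts to be tested, and with DESeq2 its adjusted p was 0.108.

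**Figure D3:**
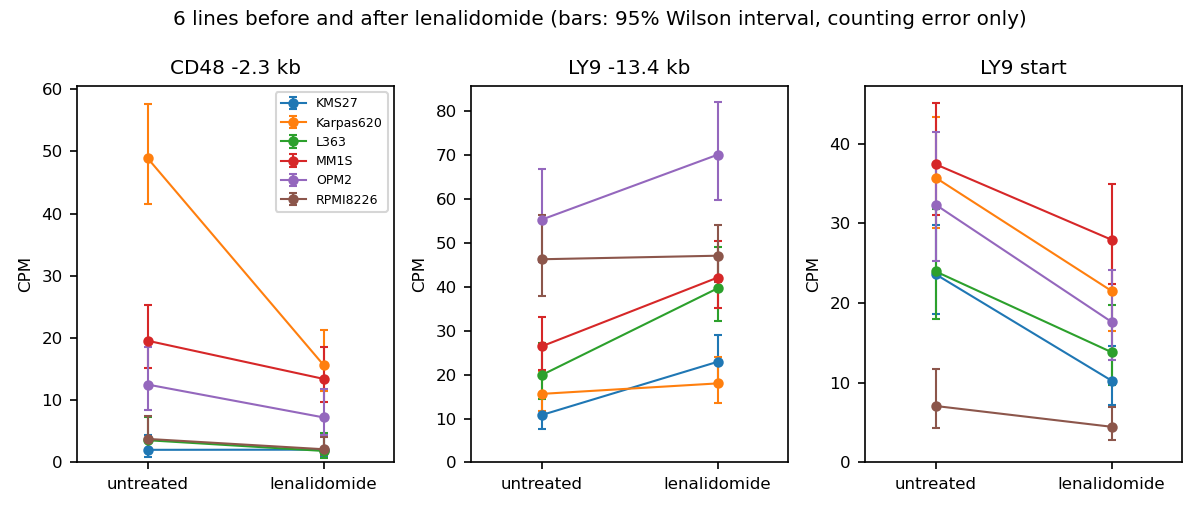
CPM at the 3 called regions in the 6 lines, untreated and after lenalidomide, each line in its own colour, with 95% Wilson intervals that cover counting error only. All 6 lines slope down at the LY9 start and up at LY9 -13.4 kb, and at CD48 -2.3 kb Karpas620 makes the largest step, from 48.9 to 15.7 CPM.

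No region of SLAMF7, SLAMF8, CD84 or CD244 passed, and the lowest adjusted p among the 14 tested regions that did not pass was 0.227, at the CD48 region 2.6 kb inside the gene (log2 fold change -0.59 ± 0.26). At SLAMF7, the region 12.0 kb upstream had 23.6 CPM before and after treatment in the mean, with a log2 fold change of 0.021 ± 0.15, and the region at 17.2 kb had -0.12 ± 0.16. The SLAMF7 start had -0.39 ± 0.27 and the region at 0.8 kb 0.037 ± 0.26, with wider errors than at the distal regions. The CD48 start had 0.076 ± 0.21, beside the fall 2.3 kb away. SLAMF8 had -0.40 ± 0.19 upstream and 0.48 ± 0.26 at the internal start. The other values were 0.020 ± 0.28 at the LY9 region 18.2 kb upstream, -0.25 ± 0.24 at the CD48 region 0.9 kb upstream, 0.21 ± 0.25 at the CD48 region 4.0 kb inside the gene, 0.13 ± 0.25 at CD84, and 0.16 ± 0.26 and -0.082 ± 0.27 at CD244. Regions of SLAMF1 and SLAMF6 had too few counts to be tested. With no filter on low counts the SLAMF8 start was also called, with a log2 fold change of 1.60, where 2.64% of all regions passed. Its largest change was in KMS27, from 3 to 35 counts (2.69 on the log2 scale). In the other lines the change ran from -0.23 in MM1S to 0.88 in RPMI8226, at low counts.

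**Figure D4:**
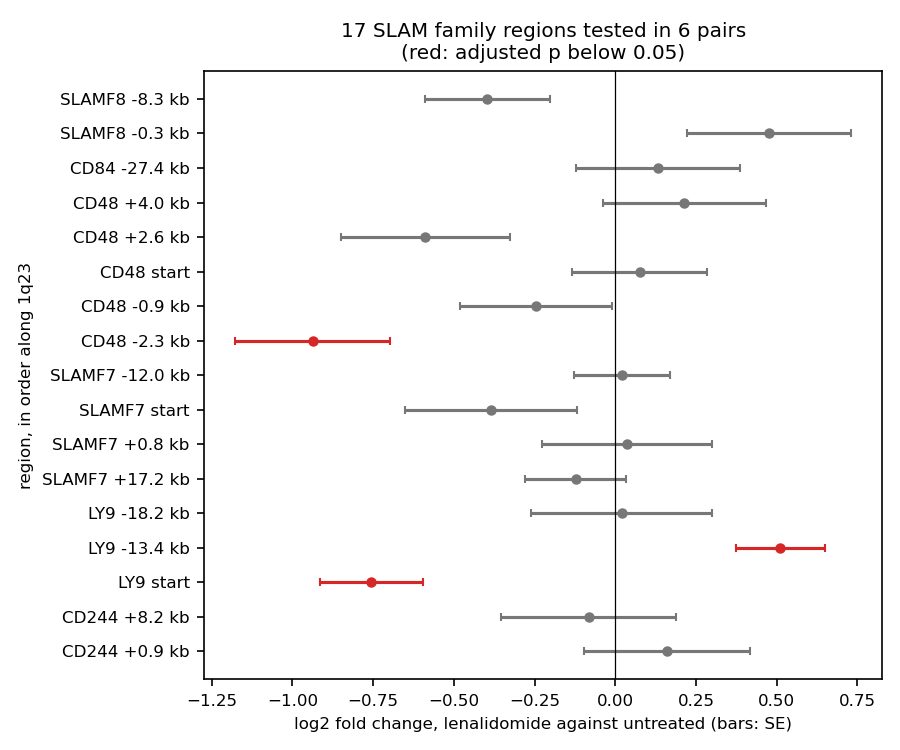
Fitted log2 fold change after lenalidomide with its SE for the 17 tested regions, in order along 1q23. Red marks an adjusted p below 0.05. The LY9 start (-0.76) and LY9 -13.4 kb (0.51) lie on opposite sides of 0, and most SLAMF7 and CD244 values lie within about 1 SE of it.

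In sums over all regions of a gene, LY9 did not pass. None of the 7 genes tested by their sum passed with edgeR or with DESeq2, against 2.13% of all 27111 genes tested (1.77% raised and 0.361% lowered), and 1 of 7 (CD48) had an unadjusted p below 0.05 by each tool. LY9 had 68.6 CPM ± 23.8 untreated and 69.9 ± 25.9 treated, a log2 fold change of 0.025 ± 0.096. With promoter regions alone LY9 fell by 0.69 on the log2 scale (SE 0.14, adjusted p = 0.00286, lower in 6 of 6 lines), where 2.38% of all genes passed. With distal regions alone it rose by 0.44 (SE 0.13, adjusted p = 0.0458, higher in 6 of 6), where 4.11% passed. The LY9 start gave 26.7 of the 28.4 CPM in the untreated promoter sum. The region 13.4 kb upstream gave 29.1 of the 40.2 CPM in the untreated distal sum. Both sums thus largely repeat the calls at those regions. The sum for CD48 was -0.32 ± 0.14 (adjusted p = 0.265), for SLAMF7 -0.11 ± 0.093 (0.671), for SLAMF8 0.12 ± 0.19 (0.850), for CD84 0.089 ± 0.20 (0.905), and for CD244 0.016 ± 0.19 (0.987). The SLAMF1 sum was -0.00080 ± 0.18, and SLAMF6 had too few counts to be tested.

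Partners that carry signals from the receptors were read from a list of 25 genes, which also held the surface proteins SLAMF9, CD2 and CD58. Of these, 23 had a region, 21 a promoter region, and 16 a promoter called in at least 11 of 22 lines. Of all promoter regions, taken singly, 41.1% were called in that many lines. A gene with several promoter regions could reach this through any of them, so the 2 shares are not alike. The adapter EAT-2 (SH2D1B) had a promoter called in 1 line at a mean of 1.49 CPM, and SAP (SH2D1A) lies on the X chromosome, for which no regions were analysed here. The kinase FYN, which SAP recruits, had a promoter region called in 22 lines, and its 7 promoter regions together had a mean of 61.0 CPM. After lenalidomide, 4 of 48 tested regions of the list rose, or 8.33% against 4.17% of all regions, and 0 fell, against 1.22%. Both called regions of PTPN6, which encodes the phosphatase SHP-1, were among them. Its start region rose from 16.9 to 36.7 CPM (log2 fold change 1.10 ± 0.16, adjusted p = 2.49e-05, higher in 6 of 6 lines). Its region 1.8 kb away rose from 14.1 to 34.1 CPM (1.28 ± 0.15, adjusted p = 1.38e-06). A region 7.6 kb upstream of the kinase gene SRC rose from 4.60 to 17.7 CPM (1.86 ± 0.26), and a region 9.7 kb from CD2, a related adhesion receptor, rose from 3.92 to 8.74 CPM (1.16 ± 0.25). Between the outermost SLAM regions, 77 regions were assigned to 32 other genes. Of 34 tested, 1 rose and 2 fell, where 4.17% of all tested regions rose and 1.22% fell.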

How the data were processed

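ATAC-seq libraries of 28 cultures were used: 22 untreated myeloma cell lines and 6 of the same lines after lenalidomide. Per the labels and the deposited files, the authors aligned reads to GRCh37 with Bowtie2 2.2.6, processed them with SAMtools 1.7, called peaks in each library with MACS2 2.1.0.20151222 at a q of 0.01, merged the peaks of all libraries and deposited raw read counts per merged region. A second deposited table of whole numbers, which the files do not define, was read as the number of each library's own peaks in a region, and a region was taken as called where it was at least 1. Whether duplicates were dropped before counting, whether a shift for the transposase was applied and whether reads or fragments were counted is not given in the sources used here. Only autosomal regions were analysed. Nearest starts were taken from the deposited annotation; of 21 transcripts that gave the member starts, all 21 were in GENCODE for this build and 18 started within 50 bases.

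The members and gene lists, and the tests, were chosen with earlier results of these data known. A further gene of the marker lists is not reported here. Members were named by their tallest promoter and distal region, by a called change after lenalidomide, or as one of the 3 highest or 3 lowest fold changes. Genes like SLAMF7 were the 5 outside chromosome 1 with the highest correlation and a mean of at least 5 CPM. CPM was computed from library totals, levels were compared as log2(CPM + 1), and intervals for single libraries are 95% Wilson intervals that cover counting error only. The lenalidomide comparison used edgeR 4.0.16 (R 4.3.3, limma 3.58.1) with TMM, its filter on low counts, the cell line as a block and Benjamini-Hochberg adjustment over all regions. Same-line libraries deviated together (r of their deviations 0.83 to 0.90, against -0.36 to 0.11 between lines). On simulated data with the regions, edgeR found 161 of 200 regions given a 2-fold change, with 5 false calls, and DESeq2 1.42.0 found 109. With gene sums, edgeR found 180 of 200, with 13 false calls. P-values set the change after lenalidomide against its variation between these 6 lines and counting error. Each line's own level is removed by the block. Alternatives were DESeq2, no TMM, other filters, no block, each line left out, promoter or distal regions alone, TMM scaling of levels, scaling by neighbouring regions, other promoter distances, pseudocounts of 0.1 and a level of 2 CPM in place of a call.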

Additional observations from a re-analysis of the deposited data

How the results depend on the processing

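Over all regions, 2036 passed. The number was 834 by DESeq2, 4092 unfiltered, 587 where every library had to hold 10 counts or more, and 1067 (without MM1S; 1310 without KMS27) to 2503 (without RPMI8226) with 1 line left out. Of the member regions 3 passed, against 1 with DESeq2 (the LY9 start) and 1 to 3 with a line left out. Without the replicate block edgeR called 0 regions (440 at an unadjusted p below 0.05) and 0 member regions (0 unadjusted). The LY9 start kept its call with each line left out (-0.87 to -0.69). Under DESeq2 the adjusted p was 0.108 at CD48 -2.3 kb and 0.0819 at LY9 -13.4 kb. Called gene sums went from 0 to 1 with promoter regions alone and to 1 with distal regions alone, which gave LY9 -0.69 and 0.44. The CD48 sum, -0.32, became 0.015 with promoter regions alone. Other fold changes that did not pass also changed sign: with distal regions alone SLAMF8 had -0.35 and CD244 -0.18, SLAMF1 had 0.00096 (DESeq2), 0.013 (no filter) and 0.0051 (at least 10 counts), SLAMF7 +0.8 kb had -0.062 (DESeq2) and CD244 +8.2 kb 0.044 (no replicate block). With a line left out, the range was -0.059 to 0.23 at the CD48 start, -0.31 to 0.26 at SLAMF7 +0.8 kb, -0.29 to 0.11 at CD244 +8.2 kb, -0.097 to 0.30 at CD244 +0.9 kb, and for sums -0.096 to 0.28 (SLAMF8), -0.10 to 0.080 (SLAMF1) and -0.073 to 0.12 (CD244).

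Lines with an open promoter, at 2 CPM in place of a peak call, numbered 22 for CD48, 21 for SLAMF7, 19 for SLAMF8, 18 for CD244, 9 for SLAMF1 and 1 for CD84. Within 2.5 kb, calls numbered 13 for CD48 and 2 for CD84. The CD84 level moved to 1.65 within 2.5 kb and -0.58 with a pseudocount of 0.1, from 0.75 in log2(CPM + 1). The median correlation between genes was -0.039 relative to neighbouring regions. Of 305 comparisons with an alternative, 250 were taken as the same, 25 as reversed, 21 as moved, 8 as weaker and 1 as stronger. A fold change was taken as the same when its sign and its call were kept, whatever its size, also where it had not passed. The cause of these moves was not tested.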
